A study of Homo sapiens with 6 samples.

Results

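The genes described here are 6 cytochrome P450 genes of families 1, 3 and 24: CYP3A4, CYP3A5, CYP3A7, CYP1A1, CYP1B1 and CYP24A1. Members were all probe sets that the array annotation assigned to 1 of these genes alone, which gave 15 probe sets of 54675 on the array and covered 5 of the 6 genes. CYP3A4 had 5 of them, CYP3A5 and CYP1B1 had 4 each, and CYP1A1 and CYP24A1 had 1 each. CYP3A7 had none, because both of its probe sets were also assigned to the read-through locus CYP3A7-CYP3A51P, so no level is given for it. The list was chosen by a reading of these same 6 arrays, in which the DOX change of CYP3A4 in the shCNOT3 lines was already known. Their levels and changes are therefore a description, with no test.

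Expression was measured in A549, a human lung adenocarcinoma cell line, in 3 stable lines derived by lentiviral transfer. All carried a tetracycline-inducible short hairpin RNA, which was non-targeting in A549-T-shNTC and directed at different CNOT3 sequences in A549-T-shCNOT3-1 and A549-T-shCNOT3-2. CNOT3 belongs to CCR4-NOT, the main machine that removes poly(A) tails from mRNAs. Each line was grown for 72 hours with doxycycline (DOX) at 1 ug/ml, which switches the hairpin on, or without it, and 1 array was run per line and state, 6 in all. All lines carried a vector and a hairpin, no untransduced A549 cells were analysed here, and whether a line was 1 clone or a pool is not given in the sources used here. The series asked how knockdown of CNOT3 by separate hairpins changes mRNA levels relative to a non-targeting hairpin.

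Cytochromes P450 are haem enzymes that insert oxygen into lipophilic molecules, with electrons passed on by a reductase partner. CYP3A4, CYP3A5 and CYP3A7 are the main drug- and steroid-oxidising enzymes of liver and gut, with CYP3A7 prominent before birth, and their genes lie in 1 cluster and are close in sequence. Transcription of CYP3A4 is classically induced through the pregnane X receptor (NR1I2) and the constitutive androstane receptor (NR1I3), partnered by RXRA. CYP1A1 and CYP1B1 oxidise polycyclic aromatic hydrocarbons and are targets of the aryl hydrocarbon receptor (AHR) with its partner ARNT, a response well known in airway cells exposed to smoke. CYP24A1 is the mitochondrial 24-hydroxylase that inactivates vitamin D hormone, and it is a standard target of the vitamin D receptor (VDR).

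Short stretches of the promoters are shown to compare the CYP3A genes around an everted repeat through which the pregnane X receptor is known to act on CYP3A4, and to give a CYP1A1 match to the core letters of the AHR element. The established AHR elements of CYP1A1 lie further upstream, outside the promoter window used here. They come from RefSeq promoters of build GRCh38.p14, in which 4 of the 6 genes matched (CYP3A4, CYP3A5, CYP3A7 and CYP1A1), whereas CYP1B1 and CYP24A1 did not. All 4 lie on the minus strand and are printed 5′ to 3′. In the CYP3A stretches capitals mark AGGTCA, an element bound by nuclear receptors, and the 6 bases that lie 6 bases before it. In CYP1A1 capitals mark GCGTG, the core letters of the AHR and ARNT element.
CYP3A4 (chr7:99784318-99784377): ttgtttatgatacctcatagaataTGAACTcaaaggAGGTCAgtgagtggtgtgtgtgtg
CYP3A5 (chr7:99680074-99680133): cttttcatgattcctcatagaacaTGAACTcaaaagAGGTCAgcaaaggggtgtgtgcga
CYP3A7 (chr7:99735329-99735388): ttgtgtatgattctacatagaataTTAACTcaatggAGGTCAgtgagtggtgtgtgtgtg
CYP1A1 (chr15:74725562-74725621): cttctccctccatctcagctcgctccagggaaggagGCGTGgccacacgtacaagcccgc

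The everted repeat of TGAACT, any 6 bases and AGGTCA, searched on both strands, matched the promoters of CYP3A4 and CYP3A5 and 3 of 34796 promoters of the same length in all (0.00862%). CYP3A7 held AGGTCA but not the whole repeat. AGGTCA lies inside the repeat, and alone it matched 13.8% of promoters. It began at position -157 from the gene start in CYP3A4, -101 in CYP3A5 and -156 in CYP3A7. GCGTG, searched likewise, matched CYP1A1 at position -57 and 36.4% of promoters. Over the 60 bases printed, CYP3A4 and CYP3A7 were identical at 54 and CYP3A4 and CYP3A5 at 40. These matches describe the letters only, and no binding was measured.

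The readout was a linear probe set intensity, compared as log2 after adding 1. Probe sets whose mean log2 over the 6 arrays lay under that of the median probe set (5.96, an intensity of 61.4) were treated as too dim to read. Below it, 42.0% of all 1-gene probe sets differed at least 2-fold with DOX even in the shNTC line, and the SD of the log2 change there was 1.38. From that level to an intensity of 255 the share was 11.0% (SD 0.69), and at 1023 and above 0.916% (SD 0.31). Because there was 1 array per condition, these SDs over probe sets, which hold any DOX effect of the shNTC line too, stand in for an error between arrays. CNOT3 left 36.1% and 20.5% of its intensity with DOX in shCNOT3-1 and shCNOT3-2 and 93.4% in shNTC by its probe set 203239_s_at. A second CNOT3 probe set, 229143_at, left 22.3% and 21.0% in the hairpin lines but 36.9% in shNTC too. Epithelial markers were at or above the filter level for 5 of 5 genes, with a summed intensity of 83291 to 95299. Of 3 leukocyte, 3 endothelial and 3 fibroblast markers with a probe set, 1 each was (CD14, PECAM1 and DCN), with sums of 208.9 to 336.8, 143.9 to 362.4 and 85.9 to 173.8, and PTPRC, CDH5 and COL1A2 lay below it.

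Of the 15 member probe sets, 8 reached the filter level: 2 of CYP3A4, 2 of CYP3A5, 3 of CYP1B1 and the 1 of CYP24A1. The other 7 included the only probe set of CYP1A1. By design, 3 were of the kind marked _x_at, in which some probes also match other sequences, all of them for CYP3A4. A further 5 were of the kind marked _s_at, whose probes match several related transcripts, 4 for CYP1B1 and 1 for CYP3A5. The remaining 7 were plain _at probe sets.

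**Figure D1:**
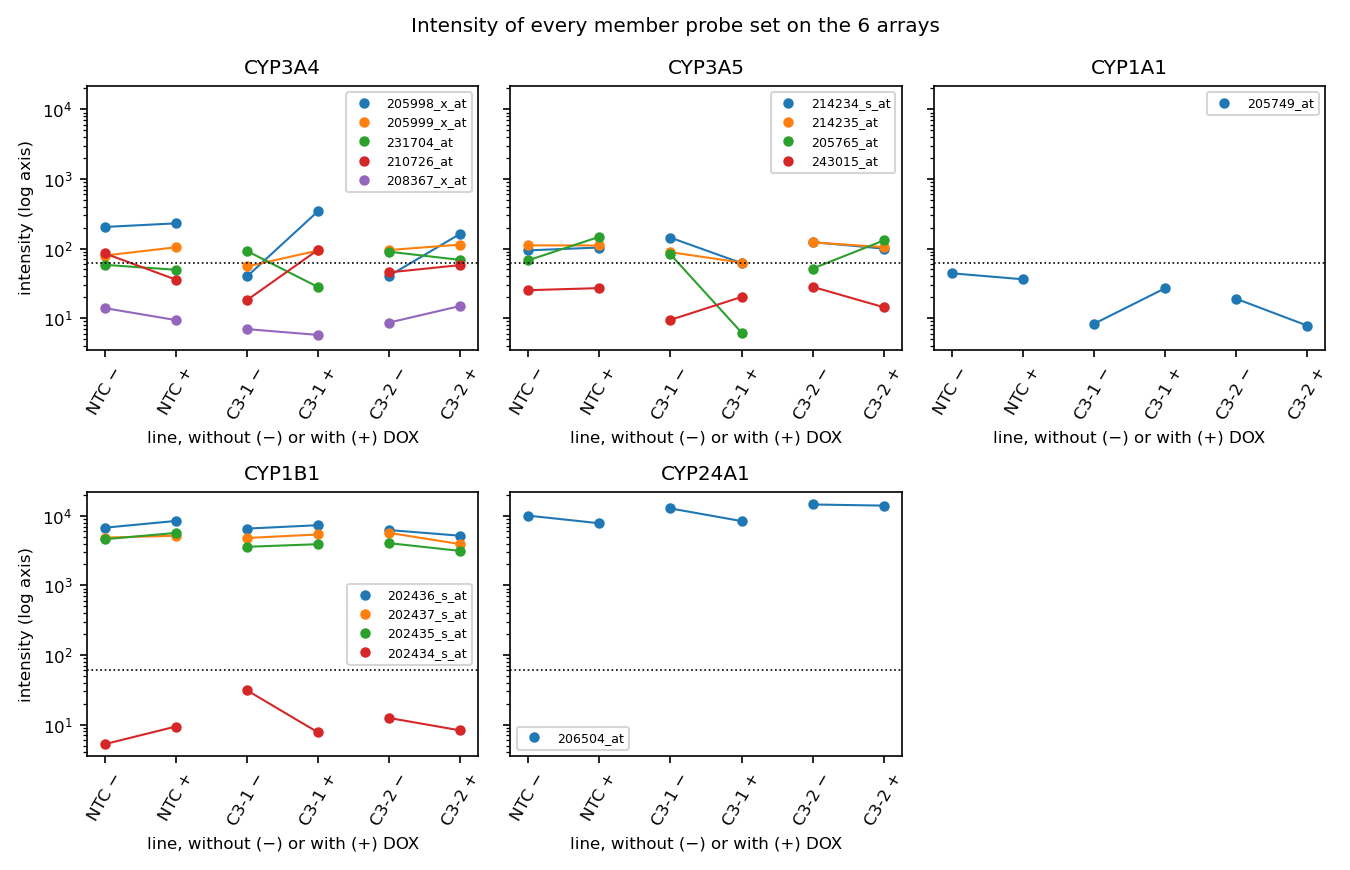
Intensity (log axis) of all 15 member probe sets on the 6 arrays, 1 panel per gene; NTC is shNTC, C3-1 and C3-2 are the shCNOT3 lines, lines join the arrays of a line without (−) and with (+) DOX, and the dotted line is the filter level of 61.4. CYP24A1 and 3 probe sets of CYP1B1 lay far above that level on all arrays, while CYP3A4 probe sets scattered around and below it.

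CYP3A4 gave the widest differences among the members that could be read, in 1 of its 5 probe sets. For 205998_x_at the intensity was 204 untreated and 230 with DOX for shNTC, then 39.7 and 345 for shCNOT3-1 and 40.7 and 163 for shCNOT3-2. The hairpin lines without DOX were thus low and apart from the other 4 arrays, and the arrays with DOX in those lines lay on either side of the shNTC values. With DOX the intensity was 8.68-fold higher in shCNOT3-1 and 4.01-fold higher in shCNOT3-2, against 1.13-fold in shNTC. In probe sets of like brightness 13.0% and 14.0% differed at least 2-fold in these hairpin lines. The log2 changes were 3.09, 1.98 and 0.17, and the mean over the hairpins was 2.53 ± 0.78 (SD, n = 2). Both starting values lay under the filter level, so the folds rest on dim readings. With values under 61.4 raised to that level the changes were 2.47 and 1.39, an alternative chosen after the data were seen. The ratio of 3' to 5' control probe sets of ACTB, a measure of RNA integrity, was higher with DOX in both hairpin lines and lower in shNTC. It was 1.33 untreated and 1.42 with DOX for shCNOT3-1, 1.36 and 1.45 for shCNOT3-2, and 1.58 and 1.47 for shNTC. That of GAPDH was 0.98 and 1.03 for shCNOT3-1, 1.09 and 1.05 for shCNOT3-2, and 0.98 and 0.966 for shNTC. For GAPDH it was thus higher with DOX in shCNOT3-1 only. The part of RNA integrity in the CYP3A4 values was not tested. In RNA from whole cultures, less RNA per cell and fewer expressing cells cannot be told apart. Without DOX the 3 lines already differed 5.14-fold, with shNTC the highest, where 18.8% of probe sets of similar brightness differed at least 2-fold between the uninduced lines.

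The other CYP3A4 probe sets did not repeat these values. The other readable one, 205999_x_at, read 79.3 and 104 in shNTC, then 55.2 and 93.7 for shCNOT3-1 and 95.1 and 114 for shCNOT3-2, without and with DOX. It was higher with DOX in each line, with log2 changes of 0.39, 0.75 and 0.26, where the SDs over probe sets of that brightness were 0.69, 0.71 and 0.75. Its correlation with 205998_x_at over the 6 arrays was 0.53, a description over arrays that come in pairs from 3 lines. For the dim 210726_at, 231704_at and 208367_x_at that correlation was 0.71, -0.89 and 0.15. Among the dim ones, 210726_at gave 0.34 and 2.34 in the hairpin lines, the larger in shCNOT3-1, and -1.23 in shNTC. The probe set 231704_at went the other way, with -1.69 in shCNOT3-1, -0.39 in shCNOT3-2 and -0.23 in shNTC, and 208367_x_at stayed between 5.73 and 14.9 on all arrays. The annotation lists 1 reference sequence, NM_017460, for both 205998_x_at and 208367_x_at, and their levels differed nonetheless. Averaged over its 5 probe sets CYP3A4 had a mean hairpin change of 0.72, and no longer differed 2-fold in both lines. That average takes in 231704_at, 210726_at and 208367_x_at, which were too dim to read. The readable 205998_x_at and 205999_x_at had mean hairpin changes of 2.53 and 0.50.

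CYP3A5, a paralog in the same gene cluster with an overlapping range of substrates, was lower with DOX in both hairpin lines by its 2 readable probe sets. For 214234_s_at the intensity was 94.0 and 103 in shNTC, then 143 and 61.7 for shCNOT3-1 and 124 and 99.7 for shCNOT3-2. The shCNOT3-1 array with DOX was the lowest of the 6, and the uninduced shCNOT3 arrays were the highest. For 214235_at it was 111 and 110 in shNTC, then 88.6 and 62.7 for shCNOT3-1 and 122 and 105 for shCNOT3-2, so shCNOT3-1 with DOX was again lowest. The log2 changes were -1.20 and -0.49 in shCNOT3-1 and -0.31 and -0.22 in shCNOT3-2, with 0.14 and -0.01 in shNTC. Only that of 214234_s_at in shCNOT3-1 reached 2-fold, where 13.0% of probe sets of like brightness did. The other hairpin changes lay within the SDs over probe sets of that brightness, 0.71 in shCNOT3-1 and 0.75 in shCNOT3-2. The mean of 214234_s_at over the hairpins was -0.76 ± 0.63 (SD, n = 2). The dimmer 205765_at read 67.7 and 147 in shNTC, then 82.3 and 6.21 for shCNOT3-1 and 51.5 and 131 for shCNOT3-2, so it too was lowest in shCNOT3-1 with DOX but was higher with DOX in shCNOT3-2. The last, 243015_at, stayed between 9.43 and 28.2 on all arrays, below the filter level.

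CYP1B1, the family 1 enzyme of extrahepatic tissues, was read clearly on all 6 arrays by 3 probe sets. For 202436_s_at the intensity was 6757 and 8447 in shNTC, then 6554 and 7337 for shCNOT3-1 and 6239 and 5178 for shCNOT3-2, without and with DOX. The uninduced lines were close together, with the highest 1.08 times the lowest, and the arrays with DOX spread to either side of them. For 202437_s_at it was 4864 and 5181 in shNTC, then 4804 and 5402 for shCNOT3-1 and 5683 and 3919 for shCNOT3-2. For 202435_s_at it was 4613 and 5683, 3590 and 3913, and 4045 and 3130 in the same order. The shCNOT3-2 array with DOX was the lowest of the 6 for each of these probe sets. In shNTC the log2 changes of the 3 probe sets were 0.32, 0.09 and 0.30, and in shCNOT3-1 they were 0.16, 0.17 and 0.12. In shCNOT3-2 they were -0.27, -0.54 and -0.37. The hairpins therefore had opposite signs in all 3, and no change reached 2-fold, where 3.10% and 2.47% of probe sets of this brightness did in the hairpin lines and 0.916% in shNTC. Against SDs of 0.42 and 0.40 for probe sets of this brightness in the hairpin lines, only the -0.54 of 202437_s_at was outside 1 SD. The ratio of 202436_s_at to 202435_s_at within an array ranged from 1.46 to 1.88. The remaining probe set, 202434_s_at, read 5.25 to 31.0, with a correlation of -0.07 with 202436_s_at over the 6 arrays.

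CYP1A1, the classical inducible AHR target, was below the filter level on all 6 arrays. Its probe set 205749_at read 44.1 and 36.2 in shNTC, then 8.26 and 26.8 for shCNOT3-1 and 19.0 and 7.81 for shCNOT3-2. The hairpin lines thus went opposite ways with DOX, with log2 changes of 1.59 and -1.18. In this brightness class 41.6% and 42.4% of probe sets differed at least 2-fold in those lines, and no direction is drawn for CYP1A1.

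CYP24A1 was read by 1 probe set, 206504_at, with high intensity on all arrays. The intensity was 10064 untreated and 7822 with DOX for shNTC, then 12776 and 8403 for shCNOT3-1 and 14557 and 14019 for shCNOT3-2. It was lower with DOX in all 3 lines, and the shNTC and shCNOT3-1 arrays with DOX were the lowest. What remained with DOX was 77.7%, 65.8% and 96.3%, or log2 changes of -0.36, -0.60 and -0.05. The mean over the hairpins was -0.33 ± 0.39 (SD, n = 2), near the change of shNTC, and none reached 2-fold. Without DOX the lines differed 1.45-fold, from shNTC to shCNOT3-2.

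**Figure D2:**
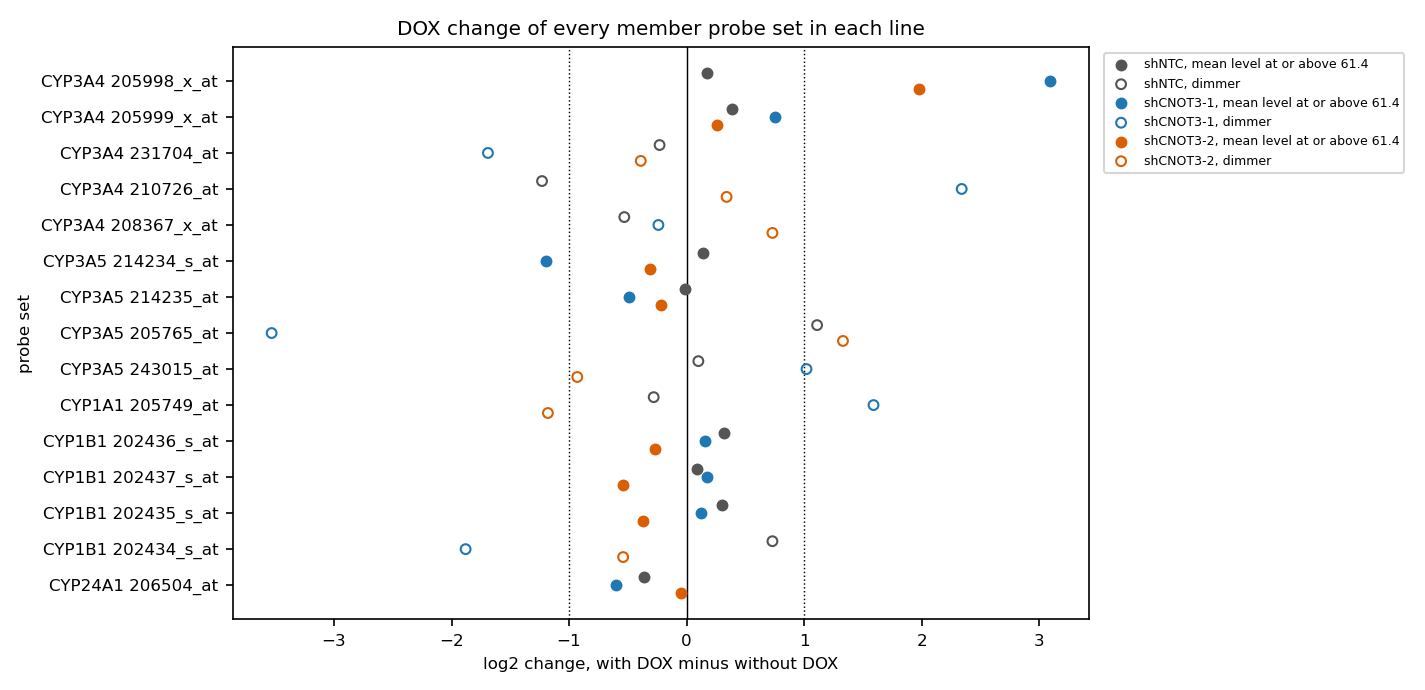
Log2 change with DOX (with minus without) of all 15 member probe sets in shNTC (grey), shCNOT3-1 (blue) and shCNOT3-2 (orange); filled points are probe sets with a mean level at or above 61.4, open points are dimmer, and dotted lines mark 2-fold. Among filled points only CYP3A4 205998_x_at in both shCNOT3 lines and CYP3A5 214234_s_at in shCNOT3-1 lay beyond 2-fold, while open points scattered from -3.53 to 2.34.

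Set side by side, the members that could be read shared no direction with knockdown. Of the 8 readable probe sets 2 were higher in both hairpin lines, both of CYP3A4, and 3 were lower in both, 2 of CYP3A5 and the 1 of CYP24A1. The 3 of CYP1B1 went opposite ways. Over all readable 1-gene probe sets 30.2% were higher and 29.3% lower in both. By its brightest probe set, 1 of the 4 readable genes, CYP3A4, was at least 2-fold higher in both hairpin lines, where 0.760% of the 12630 genes tested were. At least 2-fold lower in both were 0 of 4, against 0.483% of genes tested. In shNTC no readable member differed 2-fold, where 1.82% of tested genes were higher and 2.19% lower by that much.

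**Figure D3:**
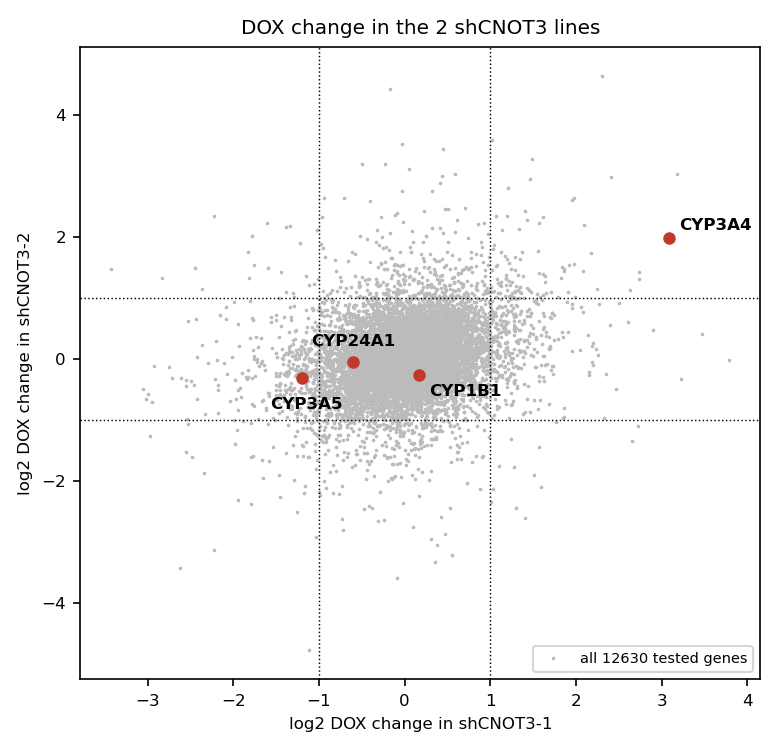
Log2 change with DOX in shCNOT3-1 (x) against shCNOT3-2 (y) for all 12630 tested genes (grey) and the 4 members that reached the filter level (red), each by its brightest probe set; dotted lines mark 2-fold. CYP3A4 stands at 3.09 and 1.98, while CYP3A5, CYP1B1 and CYP24A1 lie within or at the edge of the cloud of genes.

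Further genes were then tested in limma across all 12630 genes. They sense the ligands of these pathways or are other targets, take part in electron transfer or haem turnover, or belong to the wider P450 family. The knockdown change of that fit is the mean log2 change of both hairpin lines, and the DOX change of shNTC is not taken out of it. That DOX change counts as error in this fit, along with the difference between the hairpin lines. A fit with a DOX term gives the hairpin mean less the shNTC change, with 1 residual degree of freedom, and is given as the value beyond shNTC where it differs by over 1.5 times. Of 89 such genes 76 had a 1-gene probe set and 43 were bright enough to test. None of the 43 passed an adjusted p of 0.05 for knockdown, and 4 (CYP27B1, CYP4B1, FDX2 and HMOX1) had an unadjusted p under 0.05, all of them higher. Over all genes 0.222% passed (0.103% higher and 0.119% lower), and 14.5% had an unadjusted p under 0.05 (7.45% higher and 7.08% lower). The lowest adjusted p of the 43 in limma was 0.196, for FDX2. Beyond shNTC none of the 43 passed either, with a lowest limma adjusted p of 0.186 for ALDH3A1, and none of all tested genes did. In that limma fit 5 of the 43 had an unadjusted p under 0.05, as had 1061 of all 12630 genes. For 10 of the 43 the sign was opposite to that of the knockdown change, and the share over all genes was not taken.

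On the AHR axis 8 of 10 genes were tested. In both hairpin lines 3 were higher and 2 lower, where 33.2% and 26.9% of all tested genes were. The median knockdown change of the 8 was 0.01, where that of all tested genes was 0.03. AHR itself read 1233 and 1019 in shNTC, then 922 and 698 for shCNOT3-1 and 1084 and 987 for shCNOT3-2. It was lower with DOX in all 3 lines, with a knockdown change of -0.27 ± 0.21 (SE of the model, limma adjusted p = 0.596). Beyond shNTC it was 0.01 (limma adjusted p = 0.996). ARNT gave -0.47 and 0.46 in the hairpins, 0.48 in shNTC and a knockdown change of -0.01 ± 0.29 (-0.49 beyond shNTC), and its other readable probe sets gave hairpin means from -0.76 to 0.79. AHRR, the repressor that AHR induces, gave 0.51 ± 0.32, and TIPARP, an ADP-ribosyltransferase also induced by AHR, gave 0.41 ± 0.19 (0.44 and 0.38 by hairpin, 0.01 in shNTC). ALDH3A1, an aldehyde dehydrogenase under AHR control, read 7827 without and 2163 with DOX in shNTC. In the hairpin lines it read 7104 and 5833, and 8304 and 7988, so the array of shNTC with DOX stood apart from the other 5. Its knockdown change was -0.17, and 1.69 beyond shNTC.

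Of 17 genes in the list of xenobiotic receptors and their other targets, 8 were tested. In both hairpins 2 were higher and 4 lower, against 33.2% and 26.9% of all tested genes. The median of the 8 was -0.16, against 0.03 over all tested genes. The annotation used here gave no 1-gene probe set for the pregnane X receptor NR1I2, and NR1I3 was too dim at 11.2 to 51.6. RXRA, the shared partner of NR1I2, NR1I3 and VDR, gave -0.71 and -0.33 in the hairpins and -0.63 in shNTC (-0.52 ± 0.25, limma adjusted p = 0.377). Beyond shNTC its value was 0.11 (limma adjusted p = 0.959), of opposite sign. Another RXRA probe set gave 0.53 and -0.31. The coactivator PPARGC1A was lower in all 3 lines (-0.60 and -0.36 in the hairpins, -0.35 in shNTC), which left -0.13 beyond shNTC. ABCB1, the drug efflux pump that pregnane X receptor ligands induce together with CYP3A4, read 210 and 514 in shNTC. In shCNOT3-1 it read 137 and 140, and in shCNOT3-2 172 and 215, so its largest log2 change (1.28) was in the control line. Its knockdown change was 0.17, and -1.11 beyond shNTC. GSTA1, a glutathione transferase, gave 0.08 ± 0.41, and 0.51 beyond shNTC.

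On the vitamin D axis 4 of 10 genes were tested. In both hairpins 1 was higher and 2 lower, against 33.2% and 26.9% of all tested genes. The median of the 4 was 0.00, against 0.03 over all tested genes. VDR read 271 and 188 in shNTC, then 227 and 193 for shCNOT3-1 and 190 and 239 for shCNOT3-2, with a knockdown change of 0.05 ± 0.31 (0.57 beyond shNTC). Its other readable probe sets disagreed, one giving 0.44 and 0.55 in the hairpins and the other -0.31 and -0.74. CYP27B1, which makes the active hormone that CYP24A1 removes, read 61.8 and 103 in shNTC, then 77.3 and 133 for shCNOT3-1 and 78.3 and 182 for shCNOT3-2. It was higher with DOX in all 3 lines (0.73, 0.78 and 1.21), with a knockdown change of 0.99 ± 0.43 and a limma adjusted p of 0.333. Beyond shNTC this was 0.26 (limma adjusted p = 0.945). CYP2R1, a vitamin D 25-hydroxylase, gave -0.04 ± 0.21 (0.33 beyond shNTC), and its other readable probe set had a hairpin mean of 0.14.

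Among 12 genes of electron transfer and haem turnover 10 were tested. In both hairpins 5 were higher and 2 lower, against 33.2% and 26.9% of all tested genes. The median of the 10 was 0.23, against 0.03 over all tested genes. POR, the reductase that feeds microsomal P450 enzymes such as CYP3A4, CYP1A1 and CYP1B1, gave 0.32 and -0.05 in the hairpins and 0.09 in shNTC (0.05 beyond shNTC). FDX2, a mitochondrial ferredoxin of iron-sulfur cluster assembly, read 857 and 619 in shNTC, then 539 and 1063 for shCNOT3-1 and 659 and 980 for shCNOT3-2. Its direction in shNTC (-0.47) was opposite to that in the hairpins (0.98 and 0.57), and its knockdown change was 0.78 ± 0.23, or 1.24 beyond shNTC (limma adjusted p = 0.44). HMOX1, which degrades haem, gave 0.74 and 0.15, and ALAS1, the first enzyme of haem synthesis, -0.23 and -0.21. FECH, which inserts the iron, gave -1.16 and 0.11, but -1.17 and -0.57, and -0.53 and -0.75, by its other probe sets.

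Of 49 other P450 genes 17 were tested, and 10 of these were higher and 2 lower in both hairpins. Over all tested genes 33.2% were higher and 26.9% lower in both. The median knockdown change of the 17 was 0.40, against 0.03 over all tested genes, and the median in shNTC was 0.02. CYP4B1, a fatty acid and furan hydroxylase of lung, read 148 and 67.2 in shNTC, then 60.3 and 132 for shCNOT3-1 and 34.4 and 81.2 for shCNOT3-2. Its uninduced hairpin arrays lay under the filter level and shNTC moved the other way (-1.13), and the knockdown change was 1.17 ± 0.52 (limma adjusted p = 0.341), or 2.30 beyond shNTC (limma adjusted p = 0.515). CYP26B1, which degrades retinoic acid, and CYP4V2, a fatty acid hydroxylase, had the lowest knockdown changes of the 17 by their brightest probe sets, at -0.13 ± 0.25 and -0.08 ± 0.33 (-0.25 and -0.75 beyond shNTC). Their other readable probe sets differed from these. For CYP4V2, 228391_at gave -0.80 and -1.11 in the hairpins and 0.09 in shNTC, and for CYP26B1, 234721_s_at gave 1.93 and -1.81.

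**Figure D4:**
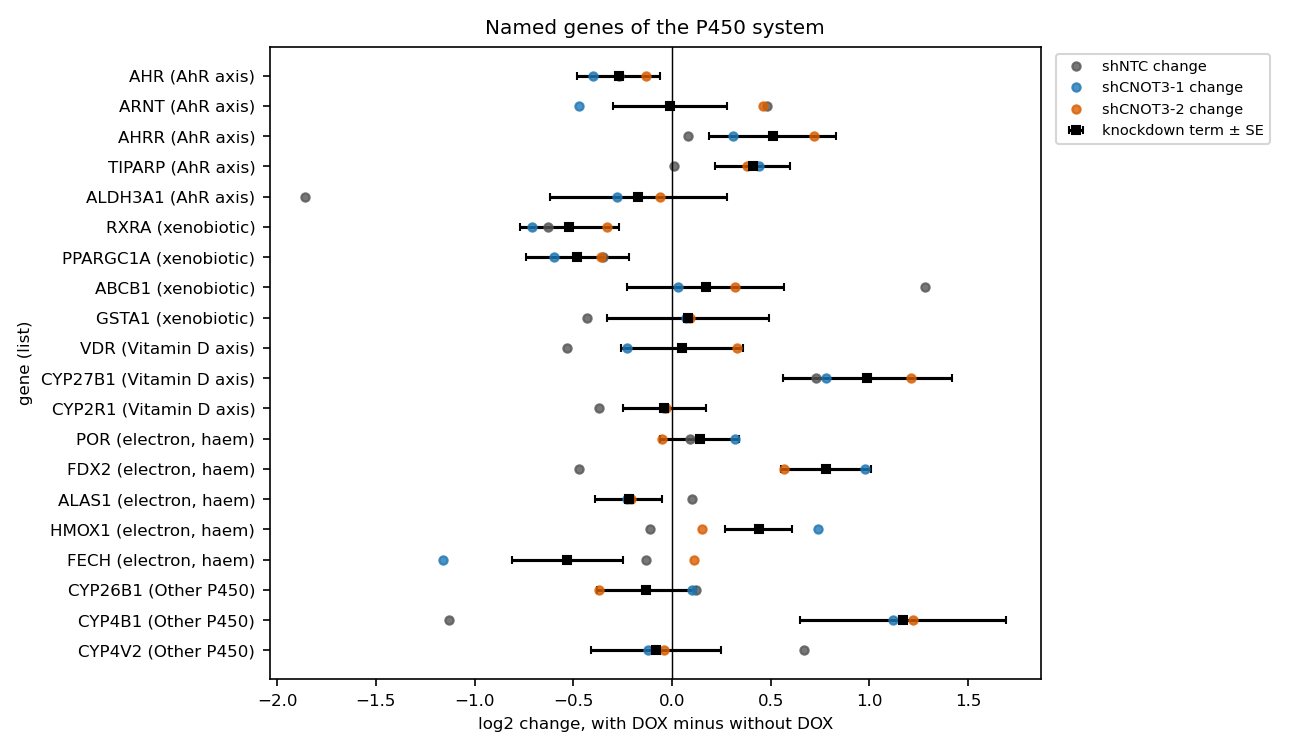
Log2 change with DOX in each line (dots; grey shNTC, blue shCNOT3-1, orange shCNOT3-2) and knockdown change with the SE of the limma model (black squares and bars) for the 20 named and tested genes of the P450 system. The knockdown change leaves the shNTC change in; it was largest for CYP4B1 (1.17) and CYP27B1 (0.99), which beyond shNTC were 2.30 and 0.26, and for ALDH3A1 and ABCB1 the shNTC change (-1.86 and 1.28) was the most distant point.

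Genes whose level ran most like that of a member over the 6 arrays were taken by Pearson correlation of log2 values, with no test. For CYP3A4 205998_x_at these were GRIK5 (r = 0.989), a glutamate receptor subunit, IKZF1 (0.976), a lymphoid transcription factor, and STAG3 (0.964), a meiotic cohesin subunit, among 775 genes of sufficient spread. GRIK5 read 138 and 156 in shNTC, then 34.9 and 238 for shCNOT3-1 and 32.4 and 88.1 for shCNOT3-2. These values came from 217509_x_at, of the kind in which some probes also match other sequences. Its uninduced hairpin arrays were low too and under the filter level, a likeness that the choice by correlation favours. For CYP1B1 the closest were ERLEC1 (0.995), PDGFRL (0.991) and DIRAS3 (0.991), and for CYP24A1 ZC3H15 (0.982), HCN2 (0.977) and CXorf38 (0.967). For CYP3A5 they were KMT5A (0.979), AGPS (0.978) and CLOCK (0.977). At least 0.95 was reached by 5 genes for CYP3A4, 20 for CYP3A5, 74 for CYP1B1 and 6 for CYP24A1, and the arrays share lines in pairs.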

How the data were processed

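The authors deposited linear probe set intensity. MAS5 is the tool in the submitters' processing notes; its settings and a genome build were not given in the sources used here. Biotinylated cRNA came from 500 ng of total RNA, per the labels' protocols. Precision is limited by the number of arrays (6). Trimmed by 2% at either end, the mean intensity of each array was 500.1. The annotation gave 41097 probe sets with 1 gene, 1801 with several and 11777 unlisted. Symbols of 41043 were updated through Entrez identifiers.

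Each gene was read from the brightest of its 1-gene probe sets, as log2(intensity + 1). Of 19775 genes, 7145 were too dim and 12630 were tested with limma 3.58.1 in R 4.3.3 (intensity trend, 2-sided, Benjamini-Hochberg, threshold 0.05). The stable line was a block and 1 term marked knockdown, leaving 2 residual degrees of freedom. Pairing comes from the labels, since each line was grown in both states; deviations of its arrays from their group means correlated at 0.05 to 0.10. No label speaks of separate cultures, so p-values reflect only the spread among these arrays, which may be technical. Without a DOX term, that spread holds the DOX change of shNTC and the difference between the changes of the hairpin lines. On simulated data with 12630 genes, 200 changed, in 5 runs, the fit recovered 58.8% of 2-fold and 93.0% of 4-fold changes, and 10.9% of its calls were false, more than the nominal share. The simulation used independent normal noise at the variances of the fit. It gave both hairpin lines the same change and shNTC none, unlike many genes here, so these shares need not hold for the arrays.

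Members and lists were chosen with earlier results of these data known. Genes named from the lists were the receptors and partners, any called gene, and the 2 highest and 2 lowest per list. The 3 genes most like a member were taken among those with an SD at least 0.5 of its own. Alternatives covered scaling, the added constant, the filter, probe set choice, the variance prior, the block, a DOX term and each line left out. Figures used Python 3.11.15 and matplotlib 3.10.9.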

Additional observations from a re-analysis of the deposited data

Results flagged for a closer look

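For CYP3A5 and 12 of the 43 tested P450 system genes both shCNOT3 lines moved one way with DOX and the shNTC line the other, by their brightest probe sets. That was 27.9% of the 43, against 31.0% of all tested genes. For the 12 the difference between the lines was tested by the limma fit with a DOX term, and none passed, with adjusted p from 0.295 (CYP4F2) to 0.89 (GSTA1). For CYP3A5, a member described without tests, the difference was not tested. The mean hairpin log2 change minus that of shNTC was -0.89 for CYP3A5. Among the P450 genes it was 3.01 for CYP4F2, 2.30 for CYP4B1, 1.90 for CYP2D6, 1.53 for CYP26A1 and -0.75 for CYP4V2. Among the genes of electron transfer and haem turnover it was 1.24 for FDX2, 0.62 for HMOX2, 0.55 for HMOX1, -0.32 for ALAS1 and -0.27 for CYB5A. It was 0.51 for the transferase GSTA1 and -0.28 for the glucocorticoid receptor NR3C1. For CYP4F2 and CYP2D6 the shNTC array with DOX read 24.8 and 29.8, under the filter level. The hairpin changes were 0.09 and 0.87 for CYP4F2, and 0.38 and 0.07 for CYP2D6. For CYP4V2 and GSTA1 the hairpin changes themselves lay between -0.12 and 0.09 by these probe sets, and another readable CYP4V2 probe set, 228391_at, gave -0.80 and -1.11 in the hairpins. The other readable probe set of HMOX2 gave 0.08 and -0.23 in the hairpins. Of NR3C1, 201866_s_at (-0.12 and -0.19), 211671_s_at (-0.41 and -0.81) and 216321_s_at (-0.31 and -0.54) were lower in both hairpins. In shNTC these gave 0.44, 0.09 and -0.07. The far dimmer NR3C1 probe set 232431_at gave 0.98 and -0.55 in the hairpins.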

How the results depend on the processing

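CYP3A4 remained the 1 gene at least 2-fold different in both hairpin lines under quantile normalization, median centring, an added constant of 16, no filter, the shNTC change subtracted, and dim values raised to the filter level. With the mean over all probe sets of a gene the count was 0 and its mean change 0.72, and the 2-fold difference between uninduced lines also went from 1 gene to 0. With no filter that last count was 2, with CYP1A1 added. For CYP3A4 the mean over all probe sets takes in 231704_at, 210726_at and 208367_x_at, which were too dim to read. Its readable probe sets gave mean hairpin changes of 2.53 and 0.50. With 1 hairpin line left out the count of genes 2-fold different with DOX ran from 1 to 2, CYP3A5 being added without shCNOT3-2. For CYP1B1 the mean change of -0.05 became -0.39 over all probe sets and -0.37 with the shNTC change subtracted. The mean over all probe sets takes in 202434_s_at (-1.21), which was too dim to read. The readable CYP1B1 probe sets gave -0.05, -0.18 and -0.12. Of the other P450 system genes 0 passed under each of the 11 alternatives run, which tested 43 of them, except 39 with the mean of probe sets and 76 with no filter, also with no replicate block (no pairing within lines), under which 191 of all genes passed. Over all genes 28 passed, against 59 with median centring, 6 with the mean of probe sets, 3 with no filter, 0 with no intensity trend, 0 with a DOX term, and 39 to 62 with a line left out. The cause of these shifts was not tested. Signal near or under the filter level limits all CYP3A4, CYP3A5 and CYP1A1 values.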

Other observations

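Among the other P450 genes further values stood out, chosen after they were seen. CYP26A1, which degrades retinoic acid, read 114 untreated and 64.1 with DOX for shNTC, then 138 and 216 for shCNOT3-1 and 150 and 258 for shCNOT3-2. Its hairpin changes (0.65 and 0.78) were opposite to that of shNTC (-0.82), and its knockdown change was 0.71 ± 0.37 (limma adjusted p = 0.424), or 1.53 less the shNTC change (limma adjusted p = 0.541). CYP2S1, an extrahepatic enzyme, gave 1.05 in shCNOT3-1 and -0.50 in shCNOT3-2. CYP4F2, which hydroxylates fatty acids and vitamin K, read 149 and 24.8 in shNTC, the latter under the filter level, and 120 to 219 on the hairpin arrays.

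Other probe sets of the genes most like CYP3A4 did not share its pattern to the same degree. For IKZF1 the probe set 205039_s_at read 325 and 387 in shNTC, then 110 and 395 for shCNOT3-1 and 80.6 and 229 for shCNOT3-2. Its other readable probe set, 1565817_at, correlated with CYP3A4 205998_x_at at 0.01 over the 6 arrays. For GRIK5 the other probe sets were below the filter level, at correlations of 0.79 and 0.22. Of the genes most like CYP3A5, other readable probe sets correlated with it at -0.16 to 0.44 for AGPS and 0.25 to 0.63 for KMT5A. Those of CLOCK correlated at 0.12 and 0.87. With CYP24A1, the other readable probe set of HCN2 correlated at -0.19, that of ZC3H15 at 0.97 and that of CXorf38 at 0.86. With CYP1B1, that of ERLEC1 correlated at 0.80.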
